A study of Mus musculus with 6 samples.

Results

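Basophils were chosen among the CD45+ cells of mouse lung by their transcripts, and 170 of the 24474 kept cells were basophils. A cell had to hold at least 1 count of 2 or more of the 6 genes Mcpt8, Gata2, Cyp11a1, Ms4a2, Cd200r3 and Fcer1a, with Mcpt8 or Cd200r3 among them. It had to lack Cd3e, Ncr1, Siglech, Cxcr2 and Fscn1, and to hold fewer than 2 counts of Cd79a and of C1qa, which mark other leukocytes. All mice carried a humanized PD-1 and were 6 to 8 weeks old, and they had received either an isotype control or a PD-1 agonist. The labels used here do not state how PD-1 was humanized, the dose or the schedule, and the series title places the work in neutrophilic asthma. Live CD45+ cells had been sorted, and the cells of 3 samples of a treatment had been mixed with hashing antibodies before droplet capture on the 10x Genomics Chromium platform. The 3 tables of the isotype group shared between 40.6% and 42.5% of the cell barcodes of the smaller table, and those of the PD-1 agonist group between 35.9% and 36.2%. Between treatments, 3 to 13 barcodes were shared by a pair of tables. Each barcode was therefore counted 1 time per treatment, which left 1 pool of cells per treatment and no replicates. No test between the treatments was possible, so intervals below are exact 95% intervals that cover counting error only.

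Basophils are rare granulocytes of the blood that enter tissue during allergic and parasitic inflammation. Their high-affinity IgE receptor, the product of Fcer1a, Ms4a2 and Fcer1g, triggers the release of histamine and of cytokines such as interleukin 4 when antigen cross-links bound IgE. They share the transcription factor GATA2 and part of their granule content with mast cells, which stay in tissue, and in the lung they also respond to interleukin 33 through the receptor encoded by Il1rl1.

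GATA factors bind short motifs built on GATA, and the promoters of a few of the genes highest in these cells hold such letters. For 3 of them, the 250 bases before the RefSeq transcription start (GRCm38.p6) are given 5′ to 3′ in the direction of the gene. Capitals mark AGATAA or TGATAA on either strand, which read TTATCT and TTATCA on the other. Cd200r3 encodes an activating receptor of basophils, Ms4a2 the beta chain of the IgE receptor, and Il6 a cytokine that nearly all of these cells held. The stretches lie at chr16:44943428-44943677 on the plus strand, chr19:11623720-11623969 on the minus strand and chr5:30012864-30013113 on the plus strand, in the order printed.
Cd200r3: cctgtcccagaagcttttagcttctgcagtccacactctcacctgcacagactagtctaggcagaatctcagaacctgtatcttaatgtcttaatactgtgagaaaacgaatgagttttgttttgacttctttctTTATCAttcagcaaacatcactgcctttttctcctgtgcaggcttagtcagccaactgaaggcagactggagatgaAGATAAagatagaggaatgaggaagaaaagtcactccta
Ms4a2: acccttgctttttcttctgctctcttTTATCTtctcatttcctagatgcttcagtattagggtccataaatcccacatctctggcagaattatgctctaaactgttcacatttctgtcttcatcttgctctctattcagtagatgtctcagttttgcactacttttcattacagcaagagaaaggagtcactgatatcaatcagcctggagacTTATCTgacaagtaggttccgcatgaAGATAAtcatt
Il6: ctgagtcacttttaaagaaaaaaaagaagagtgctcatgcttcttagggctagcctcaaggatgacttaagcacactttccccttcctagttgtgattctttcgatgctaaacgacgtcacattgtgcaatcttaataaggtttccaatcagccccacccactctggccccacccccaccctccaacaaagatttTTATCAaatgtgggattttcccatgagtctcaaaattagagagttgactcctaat
Ms4a2 held 3 matches, Cd200r3 held 2 and Il6 held 1. Of the 25 genes highest in basophils over the other cells, 19 had a promoter in the RefSeq table and 8 of these held a match, namely Cd200r3, Cpa3, Fcer1a, Grm6, Il1rl1, Il6, Ms4a2 and Slc18a2. Mcpt8, Gata2, Cyp11a1 and Il4 held none in this window. Counted over promoters, 9 of the 25 promoters of these genes (36%) held a match, against 16.6% of all 32851 mouse promoters in the table and 17.2% of the promoters of all genes called higher in basophils. For genes with at least 50 counts over the basophils, the share was 11.2%. The 25 genes include all 6 genes of the rule that chose the cells, among them Cd200r3, Fcer1a and Ms4a2 with a match. The 36% is therefore a description of genes partly chosen in advance. These are matches of letters and show no binding.

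The pools held 74 basophils of 11781 kept cells after isotype and 96 of 12693 after the agonist. The share was 0.628% (0.494 to 0.788) in the isotype pool and 0.756% (0.613 to 0.923) in the agonist pool. The log2 ratio of the shares was 0.27, with an interval from −0.18 to 0.73 that includes no difference. Taken table by table, the isotype tables gave 0.607%, 0.680% and 0.583%, and the agonist tables gave 0.635%, 0.889% and 0.710%. These ranges overlap, and tables of a treatment share cells. Of the isotype basophils 42 were in a single table, 24 in 2 tables and 8 in all 3, and of the agonist basophils 59, 32 and 5. The median total count of a basophil was 2547.5 in the isotype pool and 2518.5 in the agonist pool, with medians of 1020 and 1062 expressed genes.

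**Figure D1:**
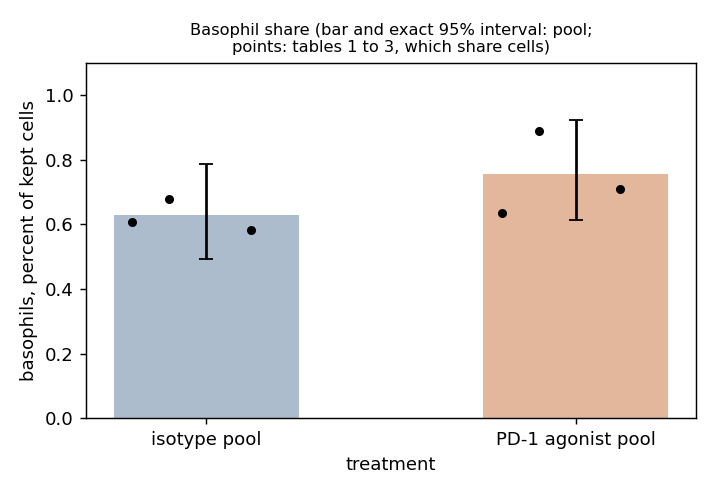
Basophils as a percent of kept cells (y axis) in the isotype and PD-1 agonist pools (x axis), with bars and exact 95% intervals for the pools and points for the 3 tables of each treatment. The pools stand at 0.628% and 0.756% with intervals that overlap.

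The exclusion genes set much of the count of cells. A single member of each pool held exactly 2 of the 6 genes, 11 isotype and 20 agonist members held all 6, and the others lay between. Just outside the rule, 10 isotype and 14 agonist cells that passed every exclusion held Cd200r3 alone, and 4 and 10 cells had the genes but fewer than 500 expressed genes. A far larger group met the gene requirement and was kept out by an exclusion gene, 81 cells in the isotype pool and 66 in the agonist pool. Cxcr2, a chemokine receptor of neutrophils, was the gene in 68 and 51 of them. In those Cxcr2-positive cells Cyp11a1 was detected in 97.1% and 98.0%, Il6 in 91.2% and 94.1% and Hdc in 100% of both pools. Their level of S100a8, a neutrophil gene, was 1547 CPM (a gene's summed counts scaled to a common total for each set of cells) in the isotype pool and 973 CPM in the agonist pool, against 52.8 and 50.5 CPM in the members. S100a8 was detected in 22.1% and 25.5% of the Cxcr2-positive cells, against 6.76% and 14.6% of the members. Csf3r, another neutrophil gene, was detected in 17.6% and 7.84%, against 4.05% and 4.17%. Whether the Cxcr2-positive cells are basophils with Cxcr2 or droplets with a neutrophil was not tested. With no exclusion gene used, the share was 1.32% and 1.28%, and the log2 ratio turned to −0.04.

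Cyp11a1, the first enzyme of steroid synthesis and a gene known from basophils, was detected in 73 of 74 isotype and 93 of 96 agonist members. Gata2 was detected in 66 and 90, Cd200r3 in 69 and 81, Mcpt8, a basophil granule protease, in 53 and 73, Ms4a2 in 46 and 56, and Fcer1a in 36 and 46. These 6 genes chose the cells, so their levels are a description. In the chosen B cells, macrophages, T cells and neutrophils, Mcpt8 was detected in under 1% of cells, with 0.408%, 0.499%, 0.226% and 0.401% in the isotype pool. The sixth marker listed for these cells was Il4, which the rule did not use, and 38 isotype members (51.4%, 39.4 to 63.1) and 51 agonist members (53.1%, 42.7 to 63.4) held it. In B cells, which should lack Il4, the share was 0.408% at a median of 2262 counts per cell in the isotype pool and 0.257% at 2075 counts in the agonist pool. With every cell thinned to 1000 counts, which left out no basophil, Il4 was detected in 27.0% and 31.3% of the members. No other listed marker is independent of the rule.

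In each pool 1 cell held counts of more than 1 of the mast cell proteases Mcpt4, Mcpt1, Cma1, Tpsb2 and Tpsab1. In the isotype pool it held 28 counts of Cma1, 1 of Mcpt4, 31 of Cpa3 and 8 of Kit beside 13 of Mcpt8. In the agonist pool it held 83 counts of Mcpt4, 68 of Mcpt1 and 16 of Cma1 beside 16 of Mcpt8. These are proteases and the stem cell factor receptor of mast cells. Neither cell held Il4, Il6 or Cd200r3. Members of the isotype pool held 43 counts of Cma1 in all and those of the agonist pool 25, so other members held Cma1 too. Tpsb2 and Tpsab1, the mast cell tryptases, had no count in a member of the pools. The cells of the third isotype table that met the rule held Tpsb2 at 336 CPM and Cma1 at 1958 CPM, but the pool keeps the deepest record of a barcode, and no kept record that met the rule held Tpsb2. The value of Mcpt4 and Mcpt1 in the agonist pool comes from that cell alone, and they are not used below. Genes of other cell types were found in more members. At least 3 genes of the list were held by 5 isotype and 3 agonist members for mast cells, by 4 and 4 for macrophages, by 3 and 2 for B cells and by 2 and 1 for NK cells. For monocytes the numbers were 5 and 7, for type 2 innate lymphoid cells 7 and 5, and for T cells 2 and 3. Neutrophils gave 1 and 1, and dendritic cells 1 and 0. At least 1 monocyte gene was held by 54 isotype and 74 agonist members. The summed level of 8 eosinophil genes was 134 CPM in the isotype and 175 CPM in the agonist pool, with at least 1 count in 23 members of each. Of these, Prg2, Ear1 and Ear6 were at 0, while Ear2 had 3 and 29 counts and Siglecf 11 and 4. Neutrophil genes were held by 17 isotype and 33 agonist members, with Ly6g, Mmp8 and Ngp at 0 and S100a8 at 13 and 15 counts. The part of such cells or of free RNA in the results was not tested.

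Set against all other kept cells, basophils carried a mediator programme. Of 1684 genes with at least 50 counts over the basophils of both pools, 187 (11.1%) were at least 4-fold higher in both pools, on a scale set by trimmed means (TMM). The cells were chosen by their counts, so this is again a description. The 25 leading genes that at least 20% of the members held included all 6 genes of the rule. Outside the rule, Car8, which encodes a protein of the carbonic anhydrase family, stood at 159 CPM in isotype and 222 CPM in agonist basophils and at 0.532 and 0.712 CPM in the other cells. Il4 stood at 1630 and 2432 CPM against 6.66 and 7.14 CPM. Slc18a2, the transporter that loads histamine into granules, stood at 667 and 784 CPM against 3.96 and 5.47 CPM. Il6 stood at 7837 and 8691 CPM against 52.1 and 59.5 CPM. Cpa3, a carboxypeptidase of basophil and mast cell granules, Il1rl1, Itga2b, Lif, Hgf and Ccl3 were among the others, together with Lama5, Grm6, Csrp3, Npl, Myo1d, Klf5 and Perp. Of the lists of known genes, 9 of 13 measured cytokines, 4 of 6 chemokines, 2 of 2 histamine genes and 9 of 15 immediate early genes were at least 4-fold higher, against the 11.1% of all genes. Measured, here and below, means at least 50 counts over the basophils of both pools. List genes low in basophils therefore drop out before the count. In full, these lists had 15 cytokines, 12 chemokines, 6 histamine genes and 17 immediate early genes in the data.

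**Figure D2:**
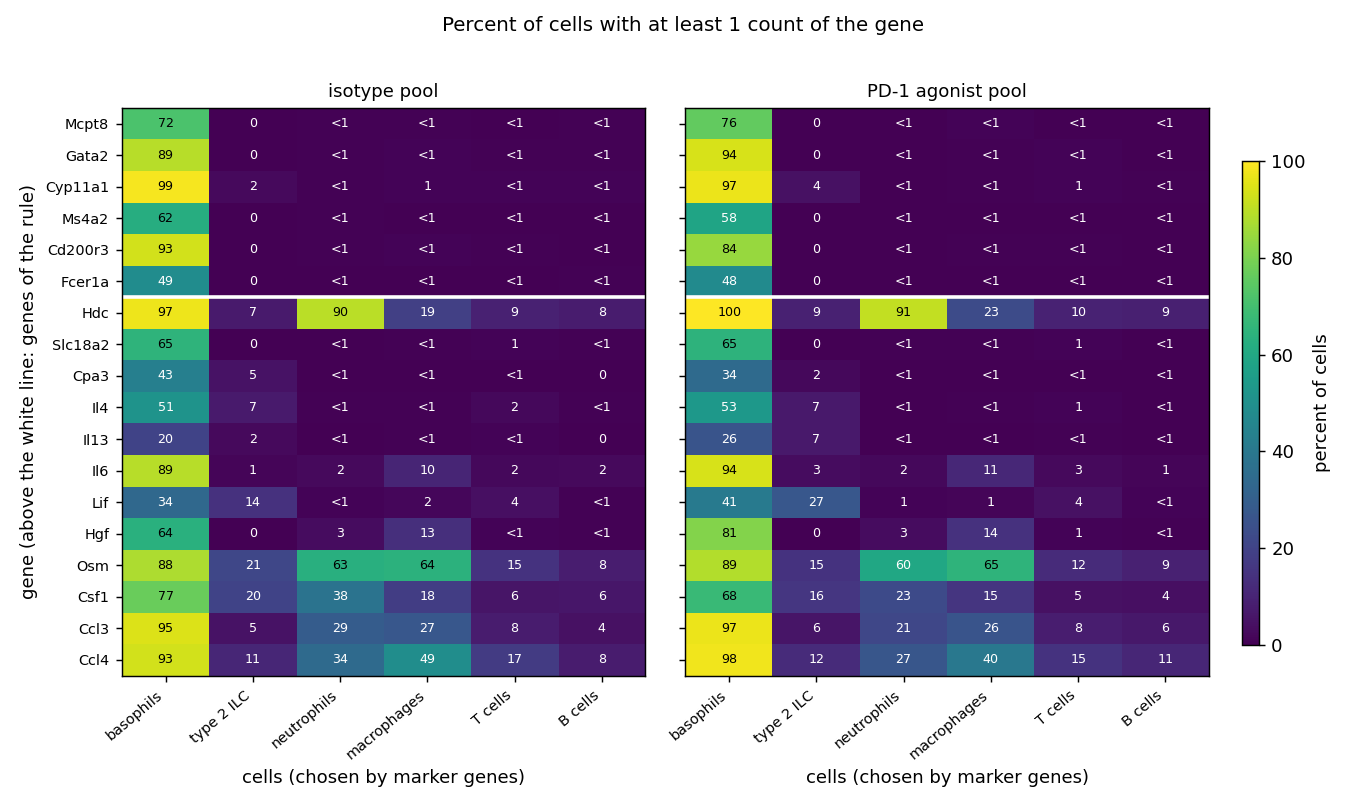
Percent of cells with at least 1 count of each gene (rows) in basophils and 5 other cell types (columns), in the isotype pool (left) and the PD-1 agonist pool (right); genes above the white line belong to the rule. Il4 and Il6 stand out in the basophil column, while Hdc is shared with neutrophils.

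Measured by the counts of a whole pool, the basophils were a main source of several cytokine transcripts. They held 0.449% of all counts of the kept cells in the isotype pool and 0.601% in the agonist pool. Of the Il4 counts they held 52.5% (48.9 to 56.1) and 67.3% (64.4 to 70.1). Of the Il6 counts they held 40.4% (39.0 to 41.8) and 46.9% (45.6 to 48.2). Of Lif, which encodes leukemia inhibitory factor, they held 38.3% and 45.1%, and of Hgf, which encodes hepatocyte growth factor, 150 of 710 and 278 of 898 counts. For the chemokines Ccl3 and Ccl4, the shares were 18.5% and 27.8%, and 11.8% and 19.4%. For Il13, a type 2 cytokine also made by innate lymphoid cells and T helper cells, they were 13.6% and 29.6%. Osm reached 4.85% and 8.12%. Of Il1b they held 0.256% and 0.953%, with 44287 of the 84482 isotype counts in neutrophils. Cells that were kept out by Cxcr2 count among the others here.

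**Figure D3:**
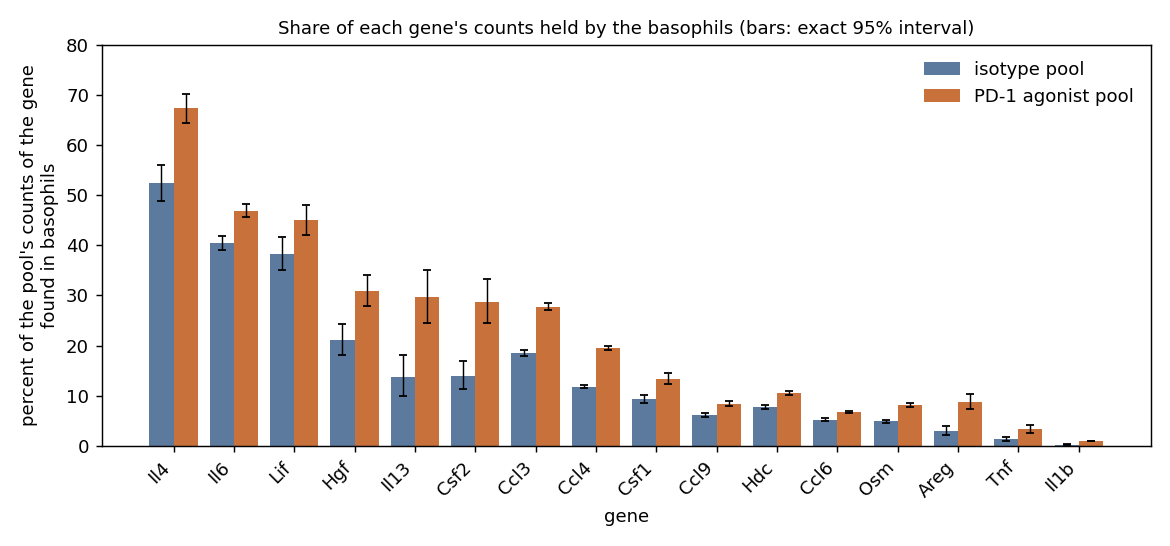
Percent of all counts of a gene in a pool that lay in basophils (y axis) for 16 genes (x axis), with exact 95% intervals for counting error. Basophils held 52.5% and 67.3% of the Il4 counts but under 1% of the Il1b counts.

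The cytokines were spread unevenly over the cells. Il6 was detected in 66 of 74 isotype and 90 of 96 agonist basophils, with a median of 6.76 and 8.50 counts per 1000. Il4 had a median of 0.0946 and 0.230 counts per 1000, yet the highest cell reached 53.2 and 54.8 per 1000. That top cell held 39.4% of all isotype and 36.9% of all agonist basophil counts of Il4, and the 10% of cells with most of it held 84.8% and 85.5%. Ccl3 was the reverse, with 5.05% and 7.75% in its top cell and detection in 70 and 93 cells. Among 9 cytokines (Il4, Il6, Il13, Lif, Csf1, Csf2, Hgf, Tnf and Osm), a median of 4 was detected in an isotype cell and 5 in an agonist cell, and of 3 and 4 after thinning.

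Il4 and Il13 lie next to each other in the genome and are often made by the same cells. In isotype basophils Il13 was detected in 12 of 38 cells with Il4 and in 3 of 36 cells without it, and in agonist basophils in 17 of 51 and 8 of 45. Cells with Il4 were deeper, with a median total of 2872 against 2254 counts in the isotype pool and 2832 against 2323 in the agonist pool. After thinning, Il13 was detected in 30.0% of isotype cells with Il4 and 5.56% of those without, and in 16.7% and 10.6% in the agonist pool. On the CPM scale, Mcpt8 was higher in cells with Il4, at 2286 against 1482 CPM in isotype and 2624 against 1662 CPM in agonist basophils. Fosb, a part of the AP-1 factor, was lower in them, at 3403 against 5491 CPM and 1886 against 4220 CPM. Il6 differed little in the isotype pool, with 7909 against 7719 CPM, and stood at 10145 against 6657 CPM in the agonist pool. Hdc, the enzyme that makes histamine, was detected in 72 isotype and 96 agonist cells and its level was similar with and without Il4 in the isotype pool, at 4487 and 4457 CPM. The thinned values are the check made on depth.

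Enzymes of the lipid mediators were detected in part. Alox5 and its helper Alox5ap, which start leukotriene synthesis, stood at 406 and 1150 CPM in isotype and 420 and 1214 CPM in agonist basophils. Ptgs2, the inducible cyclooxygenase, stood at 3268 and 3949 CPM. Ltc4s, which makes leukotriene C4, and Hpgds, the prostaglandin D2 synthase, had 0 counts in the 170 members. A limit of 3 cells sets the share with a count at up to 4.05% of isotype and 3.13% of agonist members, which at this depth does not limit the share that expresses the gene. By table, Hpgds stood at 5.32 and 16.3 CPM in the second and the third agonist table. Il10, Ccl7, Cxcl1 and Il5ra were also at 0 in the pools.

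The PD-1 gene had few counts at this depth. Pdcd1 had 0 counts in the isotype basophils, for which the same limit is 4.05% of cells with a count, and 3 counts in 2 agonist basophils. Whether transcripts of the humanized allele count toward this mouse gene is not given in the sources used here. Of the ligands, Cd274 (PD-L1) had 54 and 55 counts, at 219 and 185 CPM, and Pdcd1lg2 (PD-L2) had 18 and 19 counts. The log2 ratio of agonist over isotype for Cd274 was −0.18, with an interval from −0.75 to 0.39.

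Between the treatments, most basophil genes lay close together. The ratio of summed counts, agonist over isotype, was taken on the TMM scale, which adds 0.068 to each log2 ratio against totals. Its median over the 1684 genes was 0.04 and its quartiles were −0.21 and 0.33. Of these genes 69 (4.1%) were at least 2-fold higher in the agonist pool and 22 (1.31%) at least 2-fold lower, 91 (5.4%) in all. For 28 of the 91, 25% or more of a pool's counts came from a single cell. The counting interval lay above 0 for 239 genes (14.2%) and below 0 for 142 genes (8.43%). Such intervals narrow as counts rise, so genes with many counts clear 0 at smaller ratios. Shares of gene lists below are set against these without matching for counts. With 1 pool per treatment, a difference between the mice, the captures or the treatments cannot be told apart.

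Il1b, the gene of interleukin 1 beta, had the largest difference by the bound of its interval nearest 0 among genes not carried by 1 cell. It had 216 counts in 33 of 74 isotype basophils and 783 counts in 49 of 96 agonist basophils, or 878 and 2634 CPM. The log2 ratio was 1.65 (1.43 to 1.88), and 1.79 without the top cell of each pool. The isotype tables stood at 1082, 1012 and 1718 CPM and the agonist tables at 2625, 3464 and 1870 CPM, so the groups of tables did not overlap. Tables of a treatment share cells, so a lack of overlap, here and below, does not measure variation between mice. The isotype pool lies below its 3 tables; a barcode found in several tables enters the pool a single time, by its deepest record, so the pool is not a mean of the tables. Leaving out a table in turn gave log2 ratios from 1.28 to 1.85. In neutrophils the same gene stood at 8107 and 8019 CPM, a log2 ratio of 0.01, and over all other cells the log2 ratio was 0.10. In B cells, which should lack Il1b, it stood at 538 and 627 CPM. In type 2 innate lymphoid cells, another rare class, it stood at 293 and 533 CPM, a log2 ratio of 0.85. The neutrophil marker list was also higher in agonist basophils: the summed level of its 9 genes other than Cxcr2 was 134 CPM in the isotype and 256 CPM in the agonist pool, against 63646 and 80475 CPM in neutrophils. Of those 9 genes 6 were above 0 in the isotype and 5 in the agonist pool, and S100a9 had 9 and 45 counts. The part of neutrophil RNA in the Il1b difference was not tested.

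**Figure D4:**
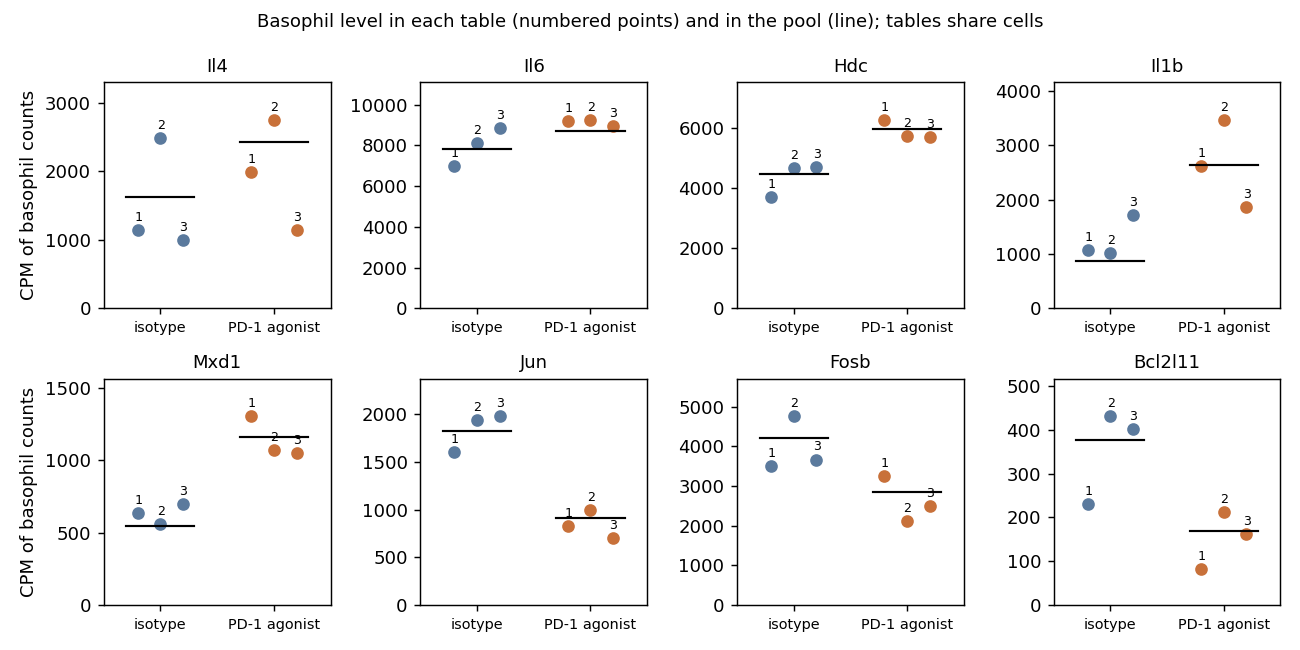
Level of 8 genes in the basophils of each table (points 1 to 3, y axis in CPM of basophil counts) by treatment (x axis), with a line for the pool, where a barcode found in several tables enters 1 time. Il1b, Mxd1 and Hdc are higher and Jun, Fosb and Bcl2l11 lower in every agonist table, while the Il4 tables overlap.

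The other 9 genes named by the same rule as higher were lowly to moderately expressed. Mxd1, a repressor that competes with MYC for its partner MAX, stood at 549 and 1164 CPM, a log2 ratio of 1.15 (0.86 to 1.45). Its isotype tables gave 635, 561 and 701 CPM and the agonist group gave 1304, 1069 and 1049 CPM, which do not overlap. Slco2b1, an organic anion transporter, had 17 and 67 counts, a log2 ratio of 1.77 (0.99 to 2.64), and basophils held 17 of its 85 counts in the isotype pool and 67 of 110 in the agonist pool. Ctnnb1, the gene of beta-catenin, had 34 and 103 counts at 138 and 346 CPM, and a log2 ratio of 1.39. Gimap5, Tmem64, Resf1, Arrdc1 and Tut4 had log2 ratios between 1.05 and 1.63 and Plac8 had 0.84. Without the first isotype table the ratio of Mxd1 was 0.92 and that of Tut4 0.82, and without the first agonist table that of Ctnnb1 was 0.91. That of Resf1 was 0.85 without the third agonist table.

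Cytokine genes leaned toward the agonist pool. Of 13 measured, 11 had a ratio above 0, against 54% of all genes, and 9 had an interval above 0, against 14.2%. Their median log2 ratio was 0.46, against 0.04 for all genes. Il4 had 401 and 723 counts, a log2 ratio of 0.65 (0.47 to 0.83). As given above, 1 cell of each pool held a large part of the Il4 counts, and the interval does not cover such a spread. The Il4 tables overlapped, with 1140, 2490 and 998 CPM after isotype and 1993, 2746 and 1138 CPM after the agonist. The ratio was 1.36 without the second isotype table and 0.00 without the second agonist table. Il13 had 39 and 91 counts and a log2 ratio of 1.02 (0.46 to 1.60), which became 1.84 and 0.54 without the same 2 tables. Areg, which encodes the repair factor amphiregulin, had 45 and 130 counts and a log2 ratio of 1.33, with 42% of the isotype and 28% of the agonist counts in 1 cell each, and 2.13 without the first isotype table. Il6 differed by a log2 ratio of 0.22 (0.13 to 0.30), from 0.20 to 0.37 with a table left out. Osm had 0.46 (0.33 to 0.60), Hgf 0.69 (0.39 to 0.98) and Lif 0.36 (0.16 to 0.56). Csf1, the macrophage growth factor, went the other way at −0.19 (−0.37 to −0.01). Hgf was detected in 63.5% of isotype and 81.3% of agonist cells, and in 41.9% and 58.3% after thinning. In the other cells, isotype then agonist, Il4 stood at 6.66 and 7.14 CPM and Il6 at 52.1 and 59.5 CPM. Lif stood there at 9.96 and 12.4 CPM and Hgf at 10.3 and 12.6 CPM, also higher in the agonist pool. Csf2 and Tnf were lower over all kept cells, with 608 and 422 and with 2622 and 1963 counts. Whether the lean is particular to basophils was not tested.

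Among the chemokines, Ccl3 stood at 15950 and 17749 CPM and Ccl4 at 21530 and 26451 CPM. Their log2 ratios were 0.22 (0.16 to 0.28) and 0.37 (0.31 to 0.42). Ccl6, Ccl9 and Cxcl2 had log2 ratios of 0.20, 0.38 and 0.47, and 5 of 6 measured chemokines had an interval above 0, against 14.2% of all genes. Ccl3 had 3924 and 5277 counts and Ccl4 had 5297 and 7864. At such counts small ratios clear 0, so this share and the 14.2% are not a like comparison. Ccl24 rested on 1 cell that held 95.8% of its agonist counts. Hdc stood at 4475 and 5980 CPM, a log2 ratio of 0.49 (0.38 to 0.60), with 3715, 4672 and 4684 CPM in the isotype tables and 6262, 5741 and 5684 CPM in the agonist tables. The agonist tables all lay above the isotype tables, and the ratio ran from 0.41 to 0.65 with a table left out. Slc18a2 had 0.30 (0.01 to 0.60).

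**Figure D5:**
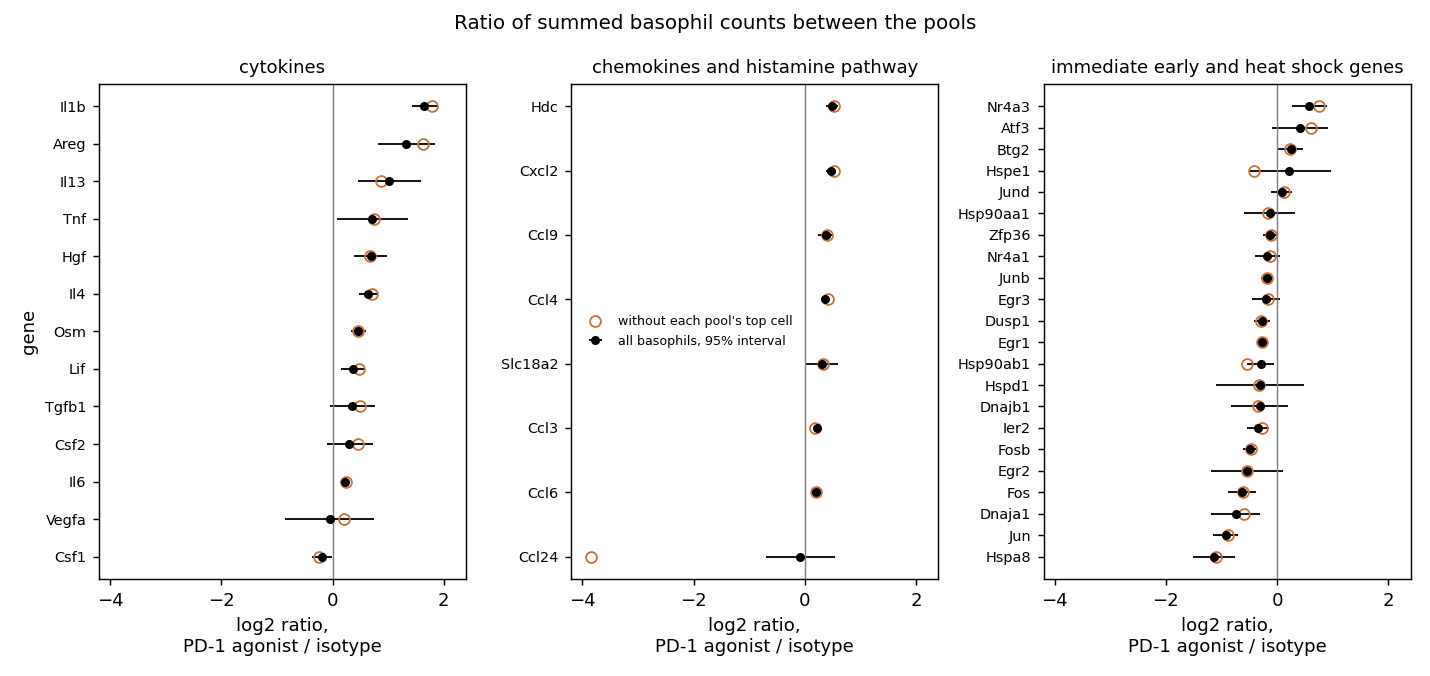
Log2 ratio of summed basophil counts, PD-1 agonist over isotype (x axis), for measured cytokines (left), chemokines and histamine genes (middle), and immediate early and heat shock genes (right); black points carry 95% counting intervals and open circles leave out the top cell of each pool. Most cytokine points lie above 0 and most immediate early points below 0.

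Granule proteases gave no common direction. Mcpt8, a gene of the rule, stood at 1979 and 2223 CPM, a log2 ratio of 0.24 (0.06 to 0.41), and 1.02 without the second isotype table. Prss34, a further basophil protease, had 72 counts in 6 isotype cells and 181 in 19 agonist cells, a log2 ratio of 1.12. A single isotype cell held 70.8% of its counts, and without the top cells the ratio was 2.53, and 3.22 without the first isotype table. Cpa3 had −0.36 (−0.77 to 0.05), and 0.07 without the 2 cells that held more than 1 of the mast cell proteases named above. Srgn, the core protein of granule proteoglycan, was at 6853 and 6330 CPM with a ratio of −0.05 (−0.14 to 0.05). Gzmb, a cytotoxic granule enzyme, had −0.42 (−0.66 to −0.17), and 0.65 without the second isotype table.

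The immediate early genes, which respond to cell stimulation and to handling within minutes, lay lower in the agonist pool. Of 15 measured, 11 had a ratio below 0, against 46% of all genes, and 8 had an interval below 0, against 8.43%. Jun had 448 counts in 47 isotype cells and 272 in 52 agonist cells, at 1821 and 915 CPM. Its isotype tables stood at 1609, 1943 and 1977 CPM and its agonist tables at 826, 995 and 699 CPM, which do not overlap. The log2 ratio was −0.92 (−1.15 to −0.70), from −1.12 to −0.69 with a table left out. Fos had −0.63 (−0.89 to −0.38) and Fosb −0.49 (−0.62 to −0.35). Egr1, at 7113 and 5631 CPM, had −0.27 (−0.37 to −0.17). Nr4a3 was higher, at 0.58 (0.27 to 0.90), and 0.10 without the second agonist table. Junb and Ier2, at −0.19 and −0.35, came to 0.02 and 0.04 without the second isotype table. In the other cells Jun, Fos and Fosb had log2 ratios of −0.26, −0.13 and −0.37, and in neutrophils Jun had −0.60.

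Most heat shock genes had a lower level in agonist basophils, and Hspa8 in the other cell types too. Of 7 measured, 6 had a ratio below 0, against 46% of all genes, and 3 had an interval below 0, against 8.43%. Their median was −0.30. With a table left out, the ratio rose above 0 for 4 of them, Hsp90aa1 (up to 0.63), Hsp90ab1 (0.083), Dnajb1 (0.082) and Hspd1 (0.14). That of Dnaja1 rose to −0.03. Hspa8, a constitutive chaperone, had 169 and 89 counts and a log2 ratio of −1.13 (−1.52 to −0.75), and −0.56 without the second isotype table. It shares 59.4% of its 31-base stretches with another gene, as Hsp90aa1 does 62.9%, Hspd1 55.8%, Dnaja1 20.7%, Hsp90ab1 16.6% and Hspe1 14.1%, so the counts of these genes are uncertain. In neutrophils its ratio was −0.81, in macrophages −0.79, in B cells −0.81 and in T cells −0.70. Bcl2l11, which encodes the death-promoting protein BIM, had 93 and 50 counts and a log2 ratio of −1.10 (−1.63 to −0.59), against 0.22 in the other cells. Its ratio was −0.22 without the second isotype table. The remaining genes named as lower were Ghitm, Vim, Ube2d2a, Gch1, Ncor1 and Rgs2, with log2 ratios between −1.28 and −0.53. Rgs2, a brake on G protein signalling, had −0.04 without the second isotype table. Vim had −0.70, and −0.14 with called doublets removed.

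For the IgE receptor and its pathway, the counts were near those of all genes. Fcer1a had a log2 ratio of 0.12 (−0.30 to 0.54), Ms4a2 −0.04 (−0.41 to 0.33) and Fcer1g 0.21 (0.02 to 0.41). Fcer1a, Ms4a2 and Gata2, which is given below, are genes of the rule that chose the cells, so their ratios are a description. Of 13 measured genes of the pathway 1 had an interval above 0 and 1 below, against 14.2% and 8.43% of all genes, and 0 were 2-fold apart, against 5.4%. Of 10 cytokine receptors 0 had an interval off 0, a count too small to set apart from those shares. Il1rl1 stood at 1175 and 1053 CPM, a log2 ratio of −0.09 (−0.33 to 0.15), and Csf2rb, the common beta chain of the receptors for interleukin 3, interleukin 5 and GM-CSF, at 1053 and 1174 CPM, a log2 ratio of 0.23 (−0.01 to 0.46); the latter shares 29.3% of its 31-base stretches with another gene. Gata2 stood at 1443 and 1890 CPM, a log2 ratio of 0.46 (0.26 to 0.65), with 1169, 1430 and 1430 CPM in the isotype tables and 1871, 1905 and 1968 CPM in the agonist tables. Intervals this wide leave differences of the size seen for Hdc undetectable in the rarer receptors.

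MHC class II genes, markers of antigen-presenting cells, were held by 35 isotype and 53 agonist members, and at least 3 of them by 8 and 10. H2-Ab1 was detected in 18 isotype and 19 agonist basophils and Cd74 in 20 and 35. Of 6 measured genes 6 had a ratio above 0, against 54% of all genes, and 6 an interval above 0, against 14.2%, with a median of 0.75, but 1 cell held 47% of the isotype and 46% of the agonist counts of H2-Ab1. Its log2 ratio was 0.65 (0.36 to 0.94), and 2.50 with called doublets removed. Beside it, the summed level of 9 B cell genes was 301 and 333 CPM, of 9 macrophage genes 1541 and 464 CPM, and of 8 dendritic cell genes 73.2 and 60.5 CPM. Chil3 alone held 269 of the 379 isotype and 30 of the 138 agonist counts of the macrophage genes. It shares 44.8% of its 31-base stretches with another gene, so the macrophage sums are uncertain. Xcr1 and Clec9a, which define a dendritic cell class, were at 0 in both pools. The part of other cells in the class II counts was not tested.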

How the data were processed

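Single-cell RNA was measured in 6 tables, 3 per treatment, with 6393 to 6749 cell records and totals of 21556545 to 29749815 counts each. The values are estimated counts of gene transcripts per cell, with occasional fractions, as deposited by the authors without normalization. Whole counts and the total count per cell are in the same deposited tables. Per the submitters' processing notes, Partek and build mm10 were used; no source used here names the aligner or counter. The deposited tables also carry the percent of mitochondrial and ribosomal counts, computed by the authors per the file headers. Between 3 and 12 lines of a table held 2 joined records and were split. A barcode that recurred within a treatment was kept with its highest total, and cells needed 500 expressed genes. Members, gene lists and named genes were chosen with earlier results of these data known.

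Summed counts of a pool were divided by its total (CPM). For ratios between sums, edgeR 4.0.16 (R 4.3.3) supplied TMM factors. Ratios were given exact binomial (Clopper-Pearson) intervals, and restricted to genes with at least 50 counts. Named genes were any gene of the lists, the 25 genes highest over the other cells among those detected in at least 20% of members, and the 10 genes in each direction whose interval bound lay farthest from 0. For the last group, genes of the rule, ribosomal, mitochondrial, histone and unnamed genes, genes sharing at least 10% of their 31-mers, and genes with 25% of a pool's counts in 1 cell were left out. Comparison cells were chosen by markers: neutrophils by Cxcr2 and Csf3r, B cells by Cd79a and Ms4a1, macrophages by C1qa, T cells by Cd3e, and type 2 innate lymphoid cells by Gata3 with Il1rl1 or Il17rb. Doublets were left in; Scrublet, run through scanpy 1.11.5 with an expected rate of 0.1 and a threshold of 0.25, called 9 isotype and 9 agonist members, whose removal was an alternative. Other alternatives changed the cell filters, the markers, the scaling, the count minimum and the tables used. Intervals cover counting error only. The interval method was tested on simulated data with independent counts, which leave out the uneven spread of a gene's counts over cells seen here.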

Additional observations from a re-analysis of the deposited data

How the results depend on the processing

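The log2 ratio of basophil shares stayed within its counting interval under every alternative run, from −0.04 with no exclusion gene to 0.49 with a minimum of 1000 genes, and from 0.17 to 0.46 when a table was left out. Genes at least 2-fold apart numbered 91, and 82 to 102 with a table left out, but 151 without exclusion genes, 394 with a minimum of 20 counts and 4663 with none; the last 2 test more genes at fewer counts, and the cause for the exclusion genes was not tested. Genes at least 4-fold higher than in the other cells numbered 187, 173 to 184 with a table left out, and 485 with no count minimum. Requiring 2 counts of Il4 lowered the share of members with it from 51.4% to 24.3% in the isotype pool and from 53.1% to 37.5% in the agonist pool, by construction; with a table left out it ran from 50.9% to 53.1% and from 44.4% to 60.2%. Of 887 recomputed log2 ratios for 81 genes, 798 stayed within the main interval and 84 left it. Among the 60 genes whose main interval left 0, 5 values changed sign, each when a table was left out: Gzmb (−0.88 to 0.65), Junb (−0.20 to 0.020), Ier2 (−0.48 to 0.045) and Hsp90ab1 (−0.36 to 0.083), highest without the second isotype table, and Cma1 (−3.50 to 0.42), highest without the third; the cause was not tested. Genes whose main interval held 0 could change sign too, such as Cpa3 (−0.88 to 0.16) and Hsp90aa1 (−0.24 to 0.63). Removing the 2 cells with more than 1 mast cell protease, an alternative chosen after seeing the data, left 87 genes 2-fold apart and 184 genes 4-fold higher. No paired analysis was possible because the tables of a treatment share cells, each treatment is 1 pool, and no result comes from a test. Depth limits the account: 170 cells with medians of 2547.5 and 2518.5 counts leave most receptors and signalling genes with wide intervals.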

Other observations

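Other groups of genes were read in the same cells. Of the inhibitory and activating receptors, Lilrb4a, an inhibitory receptor of myeloid cells, stood at 3061 CPM in isotype and 3817 CPM in agonist basophils, a log2 ratio of 0.39 (0.25 to 0.52), but 53.5% of its 31-base stretches occur in another gene. Cd69 and Cd63, which mark activated and degranulated basophils, stood at 2240 and 1968 CPM and at 874 and 891 CPM, with intervals of the ratio that include 0. Of the transcription factors, Spi1, which encodes PU.1, had 27 and 59 counts, a log2 ratio of 0.92 (0.24 to 1.64), and Runx1 had 0.02 (−0.26 to 0.30). Among genes of NF-kB feedback, Nfkbia had −0.26 (−0.39 to −0.12) and Nfkbiz 0.14 (0.01 to 0.28). Of the interferon-induced genes, Isg15 had −0.82 (−1.40 to −0.26) and Bst2 −0.89 (−1.71 to −0.10), while Ifitm2 and Ifitm3 both had 0.50. Isg15, Ifitm2 and Ifitm3 share 12.8%, 55.5% and 20.5% of their 31-base stretches with other genes, so these values are uncertain. Of the proliferation genes, Pcna, with 33 and 20 counts, had −0.93 (−1.81 to −0.08), with 36.4% of the isotype counts in 1 cell and 38.0% of its 31-base stretches in another gene. Top2a had 20 and 7 counts, Stmn1 29 and 10, Tyms 12 and 3, and Mki67 6 and 2.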
